A study of Mus musculus with 12 samples.

Results

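The tuft cell genes described here are 8 genes of 14244 in the table of gut epithelial cells: the transcription factors Pou2f3, Gfi1b and Spib, the cytokine gene Il25, its receptor gene Il17rb, and Dclk1, Avil and Chat, which mark tuft cells in the intestine. They were chosen by name, as a set of tuft cell identity genes, and not by a cut on a measured value. The choice was made with earlier results of these data known, so counts of members that were lower are no independent evidence. All 8 were found in the table and all 8 passed the filter on low values, a mean normalized count of at least 10 over the libraries. Messenger RNA came from epithelium-enriched cells of the gut of 5 wild type mice (WT) and 7 Chd8L+/- mice, which carry in every tissue 1 copy of Chd8 lacking exons of its long isoform. All mice were males of the C57BL/6 strain, 8 weeks old, born as littermates and sequenced 1 mouse per library. The question was whether the loss of 1 copy of the long isoform of this autism-associated chromatin remodeller changes what gut epithelial cells transcribe. No age, strain, sex or treatment separated the groups.

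Tuft cells are rare chemosensory cells of the epithelium. They need POU2F3 to form, sense luminal parasites and microbial metabolites, and in the mouse intestine are the main source of IL-25. IL-25 acts on type 2 innate lymphoid cells through a receptor of IL17RB and IL17RA, and the IL-13 that those cells release drives crypt progenitors towards more tuft and goblet cells.

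Between 15691662 and 20761315 reads per library fell on genes, and values are normalized counts, that is reads divided by a size factor of the library. WT replicate 2 had the lowest WT value of all 8 genes, and among the 12 libraries it ranked between 8 and 10 from the top, although in none of the 8 was its gap to the next WT library past Dixon's critical value. Results that turn on it are given with and without it. As it is the lowest WT library in the members, leaving it out moves each of their fold changes further from 0 by construction, and those values are no separate support. On the other side, Chd8L+/- replicate 6 ranked between 3 and 5 from the top, above every other Chd8L+/- library. For Chd8 itself the mean was 953 ± 85.5 (SD, n = 5) in WT mice and 1297 ± 123 (SD, n = 7) in Chd8L+/- mice. It was thus higher in Chd8L+/- mice, by 0.44 on the log2 scale (limma adjusted p = 0.121, two-sided exact permutation p = 0.00126). This value is a sum over all exons that cannot show the deleted ones. A lower value in these bulk preparations can be fewer tuft cells or less RNA in each tuft cell, which cannot be told apart.

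All 8 genes were lower in Chd8L+/- than in WT mice, with mean levels 2.64 to 4.10 times as high in WT. Of all 12808 genes tested, 48.6% had a log2 fold change below 0. No member passed an adjusted p of 0.05 with all 12 libraries in limma, where 3 genes were called as lower, 0.0234% of those tested. An unadjusted p of 0.05 or less was reached by all 8 members and by 11.8% of all genes in the same direction. Without WT replicate 2, 7 of the 8 were past the threshold, all but Il25, and so were 13.6% of all genes in the lower direction and 14.0% in the higher. With the letter that opens each library name as a block in limma, a fit that drops Chd8L+/- replicate 7, the same 7 were past it (adjusted p between 0.0434 and 0.0494, and 0.0573 for Il25), as were 2.15% of all genes in the lower direction.

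Pou2f3 encodes the POU-domain transcription factor without which tuft cells are not made. The gene (ENSMUSG00000032015.16) is on chromosome 9 of GRCm38, minus strand, from 43123939 to 43210369, and no other annotated gene overlaps it. It had 461, 118, 649, 857 and 559 normalized counts in WT replicates 1 to 5, and from 34.5 over a median of 120 to 378 in Chd8L+/- libraries. WT replicate 2 was as low as the Chd8L+/- median, while the other 4 WT libraries lay above all 7 Chd8L+/- libraries. WT mice averaged 529 ± 272 (SD, n = 5) and Chd8L+/- mice 148 ± 118 (SD, n = 7). In limma this was -1.98 ± 0.58 (standard error) on the log2 scale with an adjusted p of 0.121, the lowest of the 8 and shared with Il17rb. In the two-sided exact permutation test, run over all possible assignments of the mice, its p was 0.0202, and the smallest p this design allows is 0.00126.

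Gfi1b encodes a zinc finger repressor best known from megakaryocytes and red cell precursors and also present in tuft cells. It is on the minus strand of chromosome 2 from 28609450 to 28621982 (ENSMUSG00000026815.14), with no overlapping gene. WT replicates 1 to 5 had 87.1, 17.2, 191, 202 and 125 normalized counts, and Chd8L+/- libraries from 6.29 over a median of 26.8 to 73.7. The 6.29 of Chd8L+/- replicate 5 stood for 6 reads, so counting error alone is large there. No Chd8L+/- library reached the WT median, and 3 of them lay below WT replicate 2. Limma gave a log2 fold change of -1.97 ± 0.65 (standard error) and an adjusted p of 0.125, and the exact permutation p was 0.0278.

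Spib encodes an ETS-family factor shared by tuft cells, M cells, B cells and plasmacytoid dendritic cells. It is on the minus strand of chromosome 7 from 44525993 to 44532071 (ENSMUSG00000008193.13), with no overlapping gene. The values were 1310.2, 296, 2507, 2748 and 1545 normalized counts in WT replicates 1 to 5, and from 241 over a median of 450.4 to 1163 in Chd8L+/- libraries. Of the Chd8L+/- libraries 2 lay below WT replicate 2, and none reached the next lowest WT library. On the log2 scale it was -1.57 ± 0.50 (standard error) from WT, with a limma adjusted p of 0.124 and an exact permutation p of 0.0341. Without WT replicate 2 it was -2.11 (adjusted p = 0.00344 from limma), the smallest adjusted p among the 8.

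Il25, the cytokine of the set, was the least abundant member. It has 3 exons on the plus strand of chromosome 14 from 54932695 to 54935837 (ENSMUSG00000040770.5), 2.73 Mb from the start of Chd8, which lies on the same chromosome from 52198151 to 52257780. WT replicates 1 to 5 had 12.4, 5.07, 24.2, 67.4 and 15.0 normalized counts, read from 14, 5, 24, 68 and 12 reads. Chd8L+/- libraries had between 0 and 24 reads, with a median of 4.32 and a highest value of 21.9 normalized counts. The groups overlapped more than for the other members, as Chd8L+/- replicate 6 lay above 3 of the 5 WT libraries. Chd8L+/- replicate 4 had 0 reads, which at its depth allows a level of up to 3.14 normalized counts (3 reads, counting error only). Limma put the log2 fold change at -1.77 ± 0.79 (standard error) with an adjusted p of 0.190, on a scale that understates changes of genes this low. The exact permutation p was 0.0682, and with WT replicate 2 left out limma gave an adjusted p of 0.0623 and the exact permutation test p = 0.0424, so a difference in Il25 was not established at this depth.

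Il17rb encodes the chain of the IL-25 receptor that binds IL-25, and tuft cells themselves carry it. It is on the minus strand of chromosome 14 from 29996135 to 30008896 (ENSMUSG00000015966.17). Actr8 overlaps it on the opposite strand, at means of 179 ± 22.3 (SD, n = 5) for WT and 204 ± 39.3 (SD, n = 7) for Chd8L+/- mice, and the use of strand in the counting is not known. Il17rb had 243, 92.3, 514, 487 and 449 normalized counts in WT replicates 1 to 5, and from 62.8 over a median of 105 to 235 in Chd8L+/- libraries. Again only WT replicate 2 fell among the Chd8L+/- libraries. The change in limma was -1.46 ± 0.44 (standard error) on the log2 scale (adjusted p = 0.121), and the exact permutation test gave p = 0.0215.

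Dclk1 encodes a microtubule-associated kinase that is the usual stain for intestinal tuft cells and is also made by neurons. The gene (ENSMUSG00000027797.15) covers chromosome 3 from 55242364 to 55539068 on the plus strand, has 15 annotated transcripts, and 6 predicted genes overlap it. WT replicates 1 to 5 had 1820.4, 534, 2905, 3669.6 and 1877 normalized counts, and Chd8L+/- libraries had from 323 over a median of 753 to 1769.9. The highest Chd8L+/- library lay just under WT replicate 1, and WT replicate 2 lay below 5 of the 7 Chd8L+/- libraries. Limma gave a log2 fold change of -1.37 ± 0.48 (standard error) and an adjusted p of 0.133, and the exact permutation p was 0.0391. This fold change was the one nearest to 0 of the 8.

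The normalized count of Dclk1 sums all of these transcripts, whereas the primers that the study used for real-time PCR do not. They are shown because they define which Dclk1 transcripts that assay reads, both written 5′ to 3′.
Dclk1 forward primer: ttggataagaccaccgctct
Dclk1 reverse primer: cttgtaccggctcctcacat
In GENCODE M21 both primers matched 2 of the 15 transcripts, Dclk1-202 and Dclk1-213, each of 14 exons and beginning within the gene, at 55461758 and 55461916. The forward primer runs from 55521915 across the junction of exons 13 and 14 to 55533580, the reverse primer lies in exon 14 from 55533622 to 55533641, and the product is 81 bases. The gene table cannot separate these 2 transcripts from the 13 others.

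Avil encodes advillin, an actin-bundling protein of the villin family found in the apical tuft. It lies on the plus strand of chromosome 10 from 127000709 to 127020994 (ENSMUSG00000025432.11), and Tsfm overlaps it on the opposite strand with means of 269 ± 130.1 (SD, n = 5) among WT and 361 ± 92.0 (SD, n = 7) among Chd8L+/- mice. Avil had 1912, 439, 3419, 3894 and 2123 normalized counts in WT replicates 1 to 5, and from 185 over a median of 625 to 1795 in Chd8L+/- libraries. The library order was the one seen for Dclk1, with Chd8L+/- replicate 3 lowest and WT replicate 4 highest. On the log2 scale it was -1.78 ± 0.59 (standard error) from WT, with a limma adjusted p of 0.125 and an exact permutation p of 0.0328.

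Chat encodes choline acetyltransferase, with which tuft cells make acetylcholine. It is on the minus strand of chromosome 14 from 32408203 to 32465989 (ENSMUSG00000021919.8), where Slc18a3 lies within it on the same strand. WT replicates 1 to 5 had 83.6, 23.3, 201, 235 and 149 normalized counts, and Chd8L+/- libraries from 7.33 over a median of 39.1 to 89.2. Chd8L+/- replicate 6 lay above WT replicate 1, so that the groups overlapped here even without WT replicate 2. The change in limma was -1.78 ± 0.63 (standard error) on the log2 scale (adjusted p = 0.134), and the exact permutation test gave p = 0.0379.

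**Figure D1:**
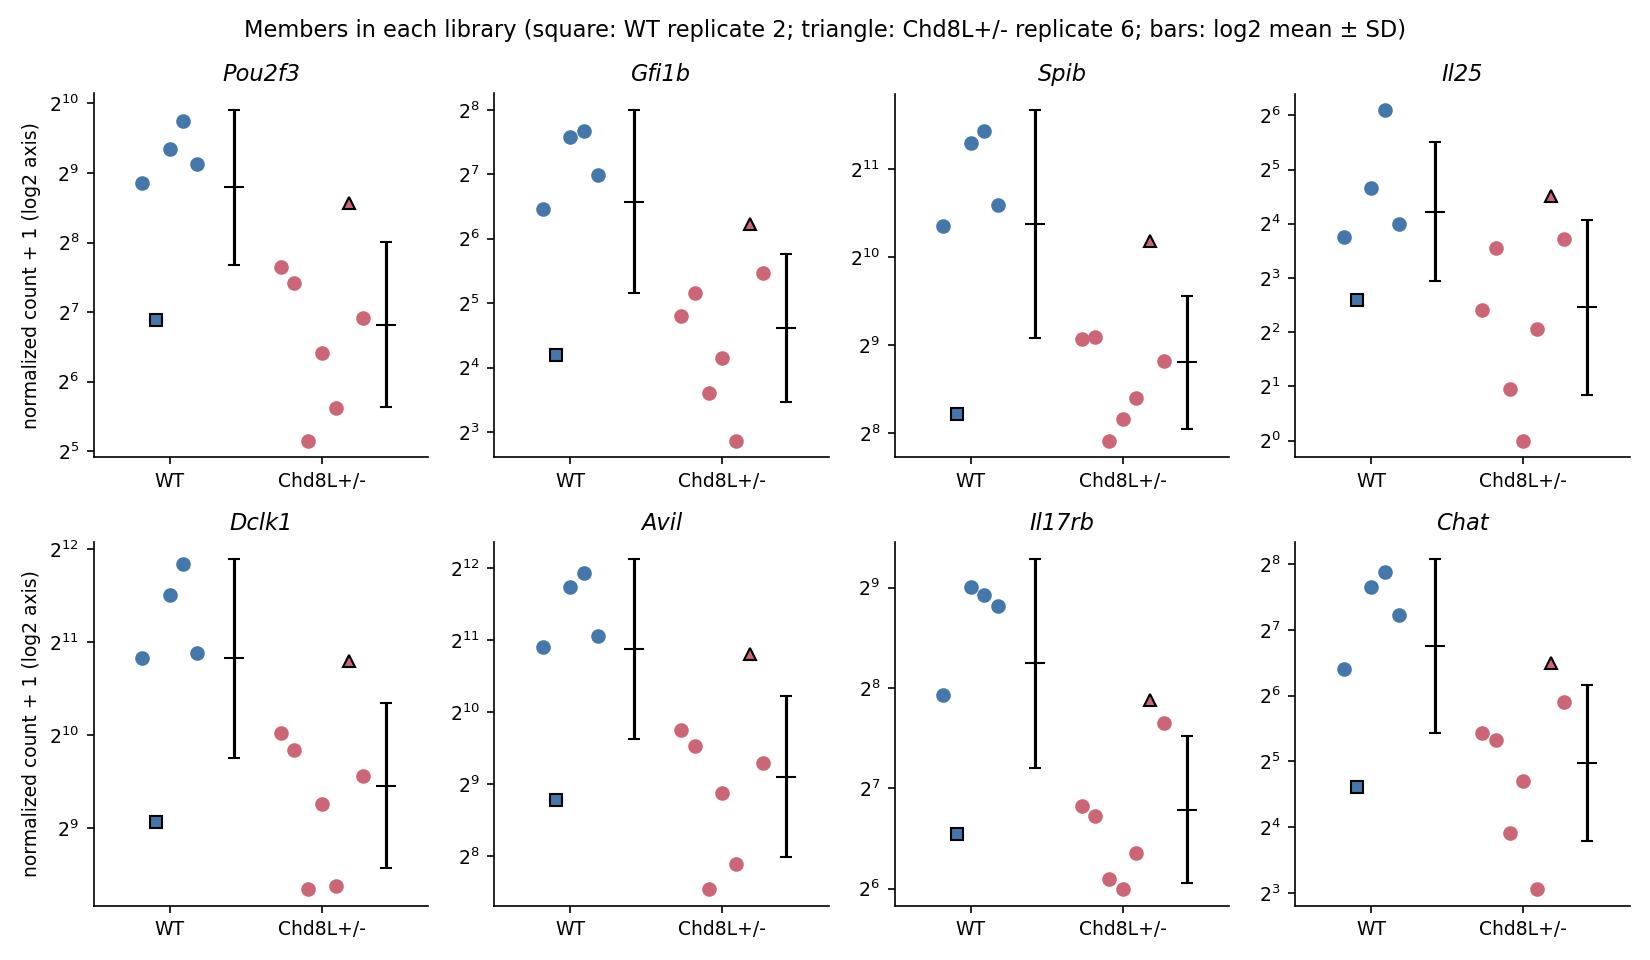
Normalized count + 1 of each gene (vertical axis, log2 scale) in the 5 WT (blue) and 7 Chd8L+/- (red) libraries, with 1 point per library, the square for WT replicate 2, the triangle for Chd8L+/- replicate 6, and bars for the mean ± SD of the log2 values. In every panel the square is the lowest WT point and the triangle the highest Chd8L+/- point, as for Pou2f3 with 118 and 378 normalized counts.

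With the exact permutation test, 7 of the 8 genes reached an unadjusted p of 0.05, against 10.7% of all genes tested that did so in the lower direction. This count fell to 0 without WT replicate 4, to 1 without WT replicate 3 or 5, and to 4 without WT replicate 1 or Chd8L+/- replicate 3, 4 or 5, and was 8 without WT replicate 2 or Chd8L+/- replicate 6. No member had all WT libraries above all Chd8L+/- libraries, a pattern seen in 0.273% of all genes. With WT replicate 2 set aside this held for 6 members, Pou2f3, Gfi1b, Spib, Dclk1, Avil and Il17rb, and for 7.71% of all genes. DESeq2 on the recovered reads called 7 members, again all but Il25 (adjusted p between 0.0111 and 0.0496 for the 7 and 0.159 for Il25), and called 4.61% of the genes with an adjusted p as lower. edgeR's quasi-likelihood test on the same reads called 0 members, with all 8 at an unadjusted p of 0.05, reached by 12.3% of all genes in the lower direction, and adjusted p-values from 0.112 to 0.212. The members are lower in either tool by similar amounts, from -2.01 to -1.38 in edgeR and from -2.03 to -1.40 in DESeq2 on the log2 scale.

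**Figure D2:**
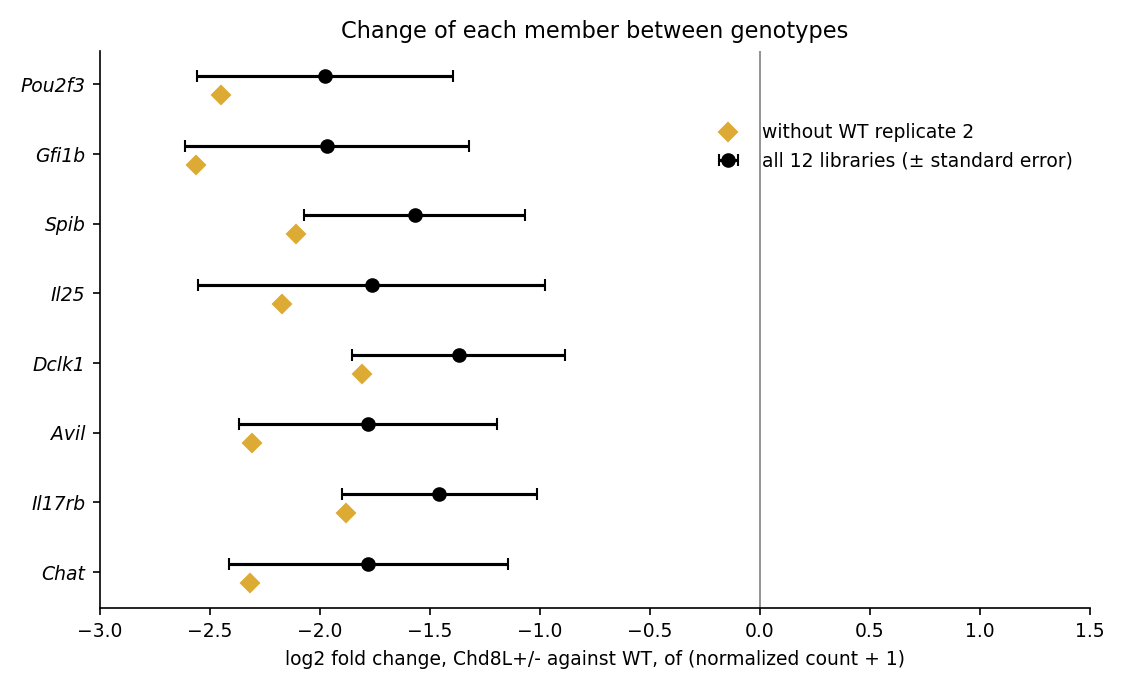
Log2 fold change of Chd8L+/- against WT for each gene (horizontal axis, log2 of the normalized count + 1) with all 12 libraries (black, ± standard error from limma) and without WT replicate 2 (yellow diamonds). All 16 points lie below 0, and each diamond lies further from 0 than the point above it, which leaving out the lowest WT library fixes, as for Gfi1b with -2.56 against -1.97.

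Whether the members were lower in step was asked by subtracting log2(Pou2f3 + 1) from log2(member + 1) within each library. This removes what they share only where a member changes in proportion to Pou2f3. In limma with all libraries Pou2f3 had the lowest log2 fold change of the 8 (-1.98) and Dclk1 the highest (-1.37). All 7 differences with all libraries therefore lie above 0 by the choice of Pou2f3 as reference. Dclk1 differed. It stood at 3.94, 4.50, 4.47, 4.28 and 3.35 times Pou2f3 in WT replicates 1 to 5, and at 5.19, 5.34, 9.12, 7.21, 6.75, 4.67 and 6.24 times in Chd8L+/- replicates 1 to 7. The groups did not overlap, and even WT replicate 2 lay below every Chd8L+/- library. On the log2 scale the difference to Pou2f3 averaged 2.03 ± 0.18 (SD, n = 5) among WT and 2.64 ± 0.33 (SD, n = 7) among Chd8L+/- mice, 0.61 higher (two-sided exact permutation p = 0.00379, Benjamini-Hochberg adjusted p = 0.0265 over the 7 comparisons). Since Pou2f3 was lower, most genes were higher against it, and 85.1% of all genes reached an unadjusted exact p of 0.05 or less in this direction. A ratio that does not overlap between groups was seen in 0.117% of all genes and in 0 of the 22 other tuft cell markers tested, of which 4 were higher against Pou2f3 at an unadjusted exact permutation p of 0.05 or less. Pou2f3 itself overlapped between groups, so the ratio of a gene at an even level in all libraries overlaps too. The share over all genes therefore does not show how rare the pattern is among genes that follow Pou2f3. The highest ratios were in Chd8L+/- replicates 3, 4 and 5, the 3 libraries with the least Pou2f3 (34.5, 83.8 and 48.2 normalized counts). Among Chd8L+/- libraries the SD of log2(value + 1) was 0.89 for Dclk1 and 1.19 for Pou2f3. The part of the level of Pou2f3 in the ratio was not tested. Nerve cells are another source of Dclk1 RNA, and the sum of the 4 markers of enteric neurons analysed here, Tubb3, Ret, Vip and Prph, ranged from 45.7 to 200.3 normalized counts in WT and from 56.0 to 148 in Chd8L+/- libraries, most of it Ret, and their part in the ratio was not tested.

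For the other 6 members no difference to Pou2f3 passed the test. Gfi1b differed least between genotypes, by 0.0084 on the log2 scale (exact permutation p = 0.977), as it stood at -2.22 ± 0.35 (SD, n = 5) against Pou2f3 among WT and at -2.21 ± 0.54 (SD, n = 7) among Chd8L+/- mice. For Avil the difference was 0.19 (exact permutation p = 0.0859, adjusted p = 0.301), for Chat 0.20 (p = 0.489, adjusted p = 0.684, exact permutation test), and for Il25 0.21 (p = 0.721, adjusted p = 0.841, exact permutation test). Spib was 0.41 higher against Pou2f3 (exact permutation p = 0.181, adjusted p = 0.329) and Il17rb 0.52 higher (exact permutation p = 0.188, adjusted p = 0.329). These last differences are not much smaller than that of Dclk1, but their spread among Chd8L+/- libraries, with an SD of 0.55 and 0.79, was larger than the 0.33 of Dclk1.

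**Figure D3:**
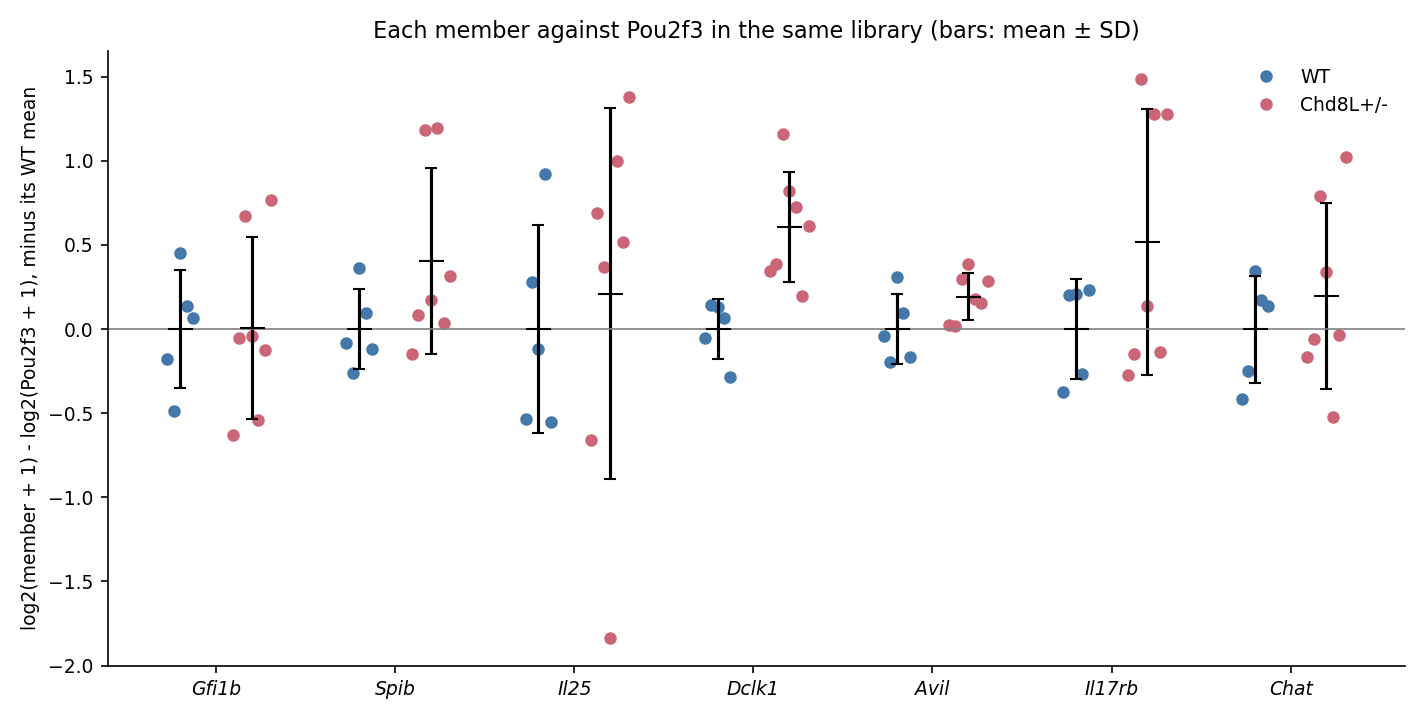
Log2(member + 1) minus log2(Pou2f3 + 1) in each library (vertical axis, log2 units, set to 0 at the WT mean of each gene) for WT (blue) and Chd8L+/- (red) libraries, with bars for the mean ± SD. Dclk1 is the gene whose 7 red points all lie above its 5 blue points, at a mean of 0.61 above WT, while Gfi1b is centred near 0 in both groups.

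The levels were compared between genes per kilobase of annotated exon, as long genes collect more reads. Avil came first with 694 ± 401 (SD, n = 5) normalized counts per kb in WT, followed by Spib with 586 ± 344, Pou2f3 with 171 ± 88.2, Dclk1 with 141 ± 77.9, Il17rb with 96.3 ± 49.2, Gfi1b with 68.0 ± 41.7, Chat with 29.4 ± 18.3 and Il25 with 23.3 ± 23.3. Over the 12 libraries Avil and Spib did not differ beyond their spread (two-sided exact permutation test by sign flips, p = 0.260, adjusted p = 0.303 over 7 neighbouring pairs). The step from Spib to Pou2f3 was the widest, 1.93 on the log2 scale, and Spib was higher in all 12 libraries (exact permutation p = 0.000488, the smallest possible, adjusted p = 0.00114). Over all libraries no difference between Pou2f3 and Dclk1 passed the test (exact permutation p = 0.540, adjusted p = 0.540). With the joined exons as length, their order was not the same in both genotypes: Pou2f3 was higher per kb in 5 of 5 WT libraries and Dclk1 in 6 of 7 Chd8L+/- libraries. Chat and Il25 could not be ordered with the joined exons as length (exact permutation p = 0.196, adjusted p = 0.274). When the longest transcript gave the length they stood at means of 28.2 and 13.9 per kb, a difference that was not tested. Dclk1 and Il17rb differed by 0.58 (exact permutation p = 0.00342, adjusted p = 0.00598), and Il17rb exceeded Gfi1b and Gfi1b exceeded Chat in all 12 libraries (adjusted p = 0.00114 each, exact permutation test). In Chd8L+/- libraries alone Dclk1, with 53.6 ± 32.6 (SD, n = 7) per kb, stood above Pou2f3, with 47.8 ± 38.2. When the longest transcript gave the length, Dclk1 stood above Pou2f3 over all 12 libraries, at means of 173 and 117 per kb. The change of order between genotypes therefore depends on the length used. The exons of Dclk1 join to 15296 bases although its longest transcript has 7962, so its place per kb depends on which transcripts these cells make.

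**Figure D4:**
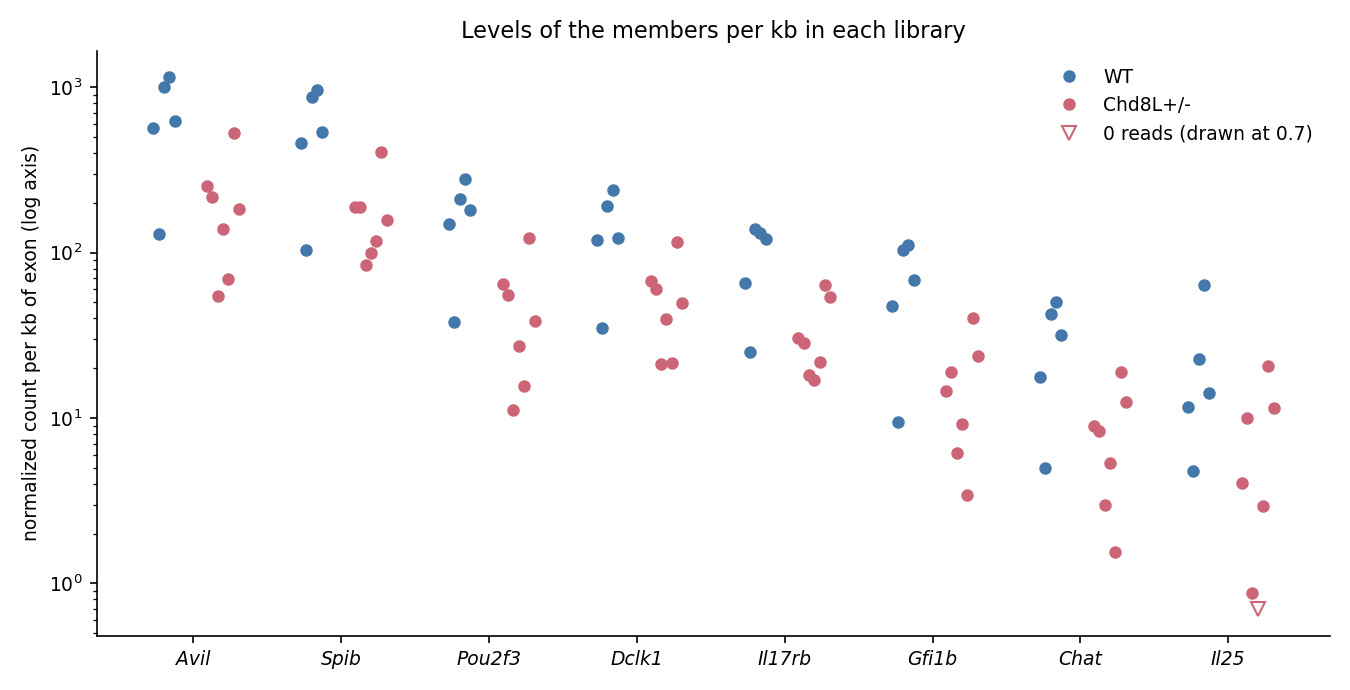
Normalized count per kb of annotated exon (vertical axis, log scale) for each gene, ordered by the mean over all libraries, with 1 point per WT (blue) or Chd8L+/- (red) library; the open triangle is the Chd8L+/- library with 0 reads of Il25. The genes fall from Avil at a WT mean of 694 to Il25 at 23.3, and within each gene the red points reach lower than the blue ones.

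Among mice of the same genotype, the members moved together. With genotype means removed, Avil followed Pou2f3 most closely over the 12 libraries (Pearson r = 0.99, Spearman rho = 0.97), then Dclk1 (r = 0.98, rho = 0.97), Gfi1b (r = 0.93, rho = 0.89), Chat (r = 0.92, rho = 0.86), Spib (r = 0.92, rho = 0.97), Il17rb (r = 0.84, rho = 0.80) and Il25 (r = 0.78, rho = 0.85). The permutation p (draws of the libraries within genotype) was between 1e-05, the smallest they can give, and 0.00722 for r, and at most 0.00722 after adjustment over the 7 relations; for rho it was between 1e-05 and 0.00569. Without the 2 libraries farthest from the median of Pou2f3, Chd8L+/- replicate 3 and WT replicate 4, r stayed between 0.70 for Il25 and 0.99 for Avil. These 2 were picked by level before genotype means were removed. WT replicate 2 and Chd8L+/- replicate 6, which lie far from the mean of their genotype, stayed in. Within the 7 Chd8L+/- libraries alone it ranged from 0.73 for Il25 to 0.99 for Avil. The letters that open the library names, whose meaning the labels do not give, mark sets of at most 4 libraries, too few for a correlation within them. The numbers that follow these letters recur too, as in A2 of a WT and C2 of a Chd8L+/- mouse. Their meaning is not given either. They entered no fit or test, so every p-value here takes the mice as independent of them. The points share the tuft cell content of each preparation, which was not measured apart from genes of this kind.

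Over all 12808 genes the 3 with the pattern most like each member were taken, again by Pearson r with genotype means removed. Of these 24 places, 11 went to members or to listed tuft cell genes. The 12808 genes held the 8 members, 22 listed markers and 8 listed regulators. These lists were chosen with earlier results of these data known, so the counts are no independent evidence. Nearest to Pou2f3 were Avil (r = 0.990), the homeobox gene Hmx3 (r = 0.987) and the adaptor gene Sh2d7 (r = 0.986). Nearest to Dclk1 were Avil with r = 0.996 and an identical order of these values (rho = 1), Pik3r5, a regulatory subunit of a phosphoinositide kinase (r = 0.995), and the leukotriene enzyme gene Alox5 (r = 0.995), and nearest to Avil were the glycogen phosphorylase gene Pygl (r = 0.997), Dclk1 and Pik3r5. Gfi1b and Chat had each other and the sialic acid receptor gene Siglecf and the kinase gene Plk2 as their 3 nearest genes, all with r = 0.99. Spib was nearest to Basp1, Vav1 and Map1a (r = 0.98 each), and Il17rb to Matk, Cd300lf and Prss53 (r = 0.97 for each). Il25 had the loosest links, with Ablim3 (r = 0.94), Hebp1 (r = 0.90) and Nags (r = 0.89). Of the 50 genes nearest to a member, between 5 for Il25 and 18 for Gfi1b and for Chat were on the lists of other tuft cell markers and regulators, while the median r over all genes was between -0.038 and -0.017. Il25, with at most 68 reads in a library, has the largest counting error of the 8.

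The promoters were read for the octamer that POU2F factors bind, ATGCAAAT, and its core ATGCAAA, on either strand, in windows of 300 bases around the start sites of RefSeq on GRCm38.p6. Windows were at hand for 6 of the 8 members, 7 windows in all, with 2 for Dclk1, and not for Pou2f3 and Il25. The octamer occurred in 0 of these 7 windows and in 1.74% of all 32851 promoters. The core, of which every octamer match is also a match, occurred in 1 of the 7, that of Avil, and in 4.63% of all promoters. The 250 bases before the start of Avil are shown because they hold this core, in capitals, once in each direction, and those before a start within Dclk1 because the PCR-measured transcripts begin just after it.
Avil, chr10:127000459-127000708, plus strand: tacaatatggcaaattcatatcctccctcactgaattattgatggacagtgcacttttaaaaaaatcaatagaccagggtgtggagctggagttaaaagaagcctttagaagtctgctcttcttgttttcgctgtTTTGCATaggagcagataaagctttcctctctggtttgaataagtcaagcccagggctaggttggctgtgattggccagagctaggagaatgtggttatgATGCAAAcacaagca
Dclk1, chr3:55461478-55461727, plus strand: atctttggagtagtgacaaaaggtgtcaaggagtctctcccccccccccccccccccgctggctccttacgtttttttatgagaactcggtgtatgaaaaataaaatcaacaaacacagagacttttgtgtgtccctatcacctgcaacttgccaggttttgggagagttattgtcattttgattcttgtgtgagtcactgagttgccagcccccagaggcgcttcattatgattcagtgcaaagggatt
In Avil the core begins 15 bases before the start site on the gene's strand and 115 bases before it on the other strand. In Dclk1 neither the octamer nor its core is present in this stretch. No binding was measured here, so the letters describe sequence alone.

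Around the members, the other tuft cell genes were lower too. Of 24 further markers 22 were tested, and 22 of 22 were lower in Chd8L+/- mice. Their median log2 fold change was -1.90, against -1.77 for the 8 members and 0.014 for all genes. None passed the adjusted threshold of limma with all libraries. All 22 did without WT replicate 2, as did 13.6% of all genes in the lower direction. WT replicate 2 had the lowest sum of these markers among WT libraries (4963 normalized counts, WT median 28925), so leaving it out is no separate support. The study named some of them from these libraries, so the count is not independent evidence. Of the regulators of the tuft lineage, Hmx2 averaged 143 ± 86.3 (SD, n = 5) in WT against 45.0 ± 33.6 (SD, n = 7) in Chd8L+/- mice (log2 fold change -1.70, limma adjusted p = 0.126). Hmx3 was lower by a similar amount (log2 fold change -1.64, limma adjusted p = 0.134). 1810046K07Rik, listed here as a tuft cell coactivator gene, had 591 ± 306 and 225 ± 143 normalized counts (log2 fold change -1.40, limma adjusted p = 0.157). Sox9, a factor of crypt progenitors that tuft cells keep, had 953 ± 184 and 607 ± 248 (log2 fold change -0.73, limma adjusted p = 0.127). These 4 were past the threshold without WT replicate 2 (adjusted p between 0.0110 and 0.0410 from limma), which was the lowest WT library in each of them. Of the progenitor factors on the list, Sox4 stood at 0.30 (adjusted p = 0.534), Ascl2 at 0.079 (adjusted p = 0.912), the secretory lineage factor Atoh1 at -0.24 (adjusted p = 0.515) and Gfi1, a paralog of Gfi1b, at 0.11 (adjusted p = 0.721) on the log2 scale, all from limma.

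The genes that receive IL-25 or act beside it were read from 3 lists. Of 7 other IL-17 family genes tested, 4 were lower and 0 reached an unadjusted p of 0.05: Il17ra, the partner chain of IL17RB, averaged 442 ± 92.9 (SD, n = 5) against 403 ± 56.0 (SD, n = 7) normalized counts (log2 fold change -0.12, limma adjusted p = 0.619). Traf3ip2, the adaptor of this receptor family, stood at -0.012 on the log2 scale (adjusted p = 0.960 from limma) and Traf6 at 0.040 (adjusted p = 0.861 from limma). Of 10 genes by which the epithelium receives or answers type 2 signals, 8 were lower and 3 reached an unadjusted p of 0.05. These were Clca1, a goblet cell product induced by IL-13, with 47331 ± 24455 and 22940 ± 6839 (SD) normalized counts (log2 fold change -0.94, limma adjusted p = 0.128), the alarmin Il33 (-1.03, adjusted p = 0.163 from limma) and Retnlb, a goblet cell product active against worms (-1.90, adjusted p = 0.198 from limma). The receptor gene Il13ra1 stood at -0.22 (adjusted p = 0.422), Stat6, the factor that IL-13 activates, at -0.15 (adjusted p = 0.477) and the kinase gene Jak1 at -0.0024 (adjusted p = 0.993) on the log2 scale, all from limma. Clca1 and Il13ra1 passed the threshold without WT replicate 2 (limma adjusted p = 0.0270 and 0.0434), as did 13.6% of all genes in the lower direction. Retnlb spread widely within groups, from 199 to 2318 normalized counts in WT and from 37.1 to 1465 in Chd8L+/- libraries. The cytokine genes Il13, Il4, Il5 and Il9 had no row in the table. Of 7 markers of type 2 lymphoid cells tested, 3 were lower and 4 higher, with a median log2 fold change of 0.35. Only 1 of them, Il1rl1, reached an unadjusted p of 0.05 in limma. Il1rl1, the IL-33 receptor of type 2 lymphoid cells and mast cells, had 17.8, 13.2, 969.9, 2867 and 187 normalized counts in WT replicates 1 to 5 and from 2.80 over a median of 16.4 to 181 in Chd8L+/- libraries. Its high values were in WT replicates 3 and 4, the 2 WT libraries with the most Pou2f3, while WT replicate 1 was as low as most Chd8L+/- libraries (log2 fold change -3.06, limma adjusted p = 0.168 and 0.0298 without WT replicate 2, exact permutation p = 0.0758).

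Beside Chat, 5 genes of acetylcholine handling were tested. Of these, 2 were lower and 3 higher, and Ache, the enzyme that breaks acetylcholine down, averaged 36.9 ± 17.5 (SD, n = 5) against 61.5 ± 16.0 (SD, n = 7) normalized counts (log2 fold change 0.80, limma adjusted p = 0.140, and 0.0196 without WT replicate 2). The choline and vesicle transporter genes Slc5a7 and Slc18a3 had no row. Beside Avil, 6 of the 7 other villin and gelsolin genes were lower at a median of -0.13 on the log2 scale, and Vil1 itself stood at -0.15 (adjusted p = 0.755 from limma). Gsn was the lowest of them (log2 fold change -0.95, limma adjusted p = 0.205, and -1.39 with an adjusted p of 0.0118 without WT replicate 2). Of 6 paralogs of the members, 1 was lower and 5 were higher. Dclk3 had between 15.0 and 32.3 normalized counts in WT and between 35.5 and 55.5 in Chd8L+/- libraries (log2 fold change 1.06, limma adjusted p = 0.121 and 0.00907 without WT replicate 2, exact permutation p = 0.00126). The share of all genes with every Chd8L+/- library above every WT library was not counted. The ranges of Dclk3 therefore do not show how rare this is. Pou2f1, the widely expressed relative of Pou2f3, had 226 ± 70.7 and 301 ± 23.7 (SD) normalized counts (log2 fold change 0.47, limma adjusted p = 0.143, and 0.0204 without WT replicate 2). Without that library 13.6% of all genes were past the threshold as lower and 14.0% as higher, so calls in that fit are common. Gfi1 and Pou2f2, the paralogs of Gfi1b and Pou2f3 most present in blood cells, stood at 0.11 and -0.41 (adjusted p = 0.721 and 0.729 from limma).

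Several members are also made by cells outside the tuft lineage, so their markers were read beside them. Of 10 B cell markers, which share Spib, 9 were lower and 0 reached an unadjusted p of 0.05 in limma, and their summed level ranged from 512 to 2660 normalized counts in WT and from 279 to 5151 in Chd8L+/- libraries. The part of B cells in the value of Spib was not tested. Of 6 plasmacytoid dendritic cell markers 4 were higher, with a summed level of 1865 to 2332 in WT and 2076 to 3931 in Chd8L+/- libraries, and Irf8 stood at 0.61 on the log2 scale (adjusted p = 0.121 from limma). Without WT replicate 2, Irf8 and Siglech passed the threshold as higher (0.67 and 1.40 on the log2 scale, limma adjusted p = 0.0122 and 0.0244). In that fit 14.0% of all genes were past it as higher and 13.6% as lower. Of 5 M cell markers tested 2 were lower, the defining markers Gp2 and Sox8 had no row, and the sums were 1494 to 3892 in WT and 1452 to 2197 in Chd8L+/- libraries. Marcksl1 stood at -1.10 (adjusted p = 0.175, and 0.0172 without WT replicate 2), Ccl9 at -0.53 (adjusted p = 0.184) and Tnfrsf11a at 0.36 (adjusted p = 0.156) on the log2 scale, all from limma, the median of the 5 was 0.19, and the part of M cells in the value of Spib was not tested. Of the megakaryocyte and red cell markers, which share Gfi1b, Gata1, Pf4, Ppbp and Gp9 had no row and the 2 alpha globin genes stood at 0.79 and 0.82 (adjusted p = 0.433 and 0.423 from limma). Their sums were 247 to 1968 in WT and 426 to 3731 in Chd8L+/- libraries.

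The wider epithelium was compared in the same way. Of 8 enterocyte markers 7 were lower, with a median log2 fold change of -0.42 and 1 at an unadjusted p of 0.05, Fabp1 (-1.08, adjusted p = 0.121 from limma). Their summed level was 280889 to 637084 in WT and 245158 to 573901 in Chd8L+/- libraries. WT replicate 2 had the lowest enterocyte sum of the WT libraries and Chd8L+/- replicate 6 the lowest of all. Without WT replicate 2, Fabp1 passed the threshold (limma adjusted p = 0.0119), in a fit that called 13.6% of all genes as lower. Enteroendocrine markers had a median of -0.15 with 4 of 7 lower, and T cell markers -0.14 with 4 of 6 lower; without WT replicate 2 the hormone genes Sct and Gip passed the threshold as lower (limma adjusted p = 0.00394 and 0.0416). What part the make-up of the preparations played in the members was not tested.

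**Figure D5:**
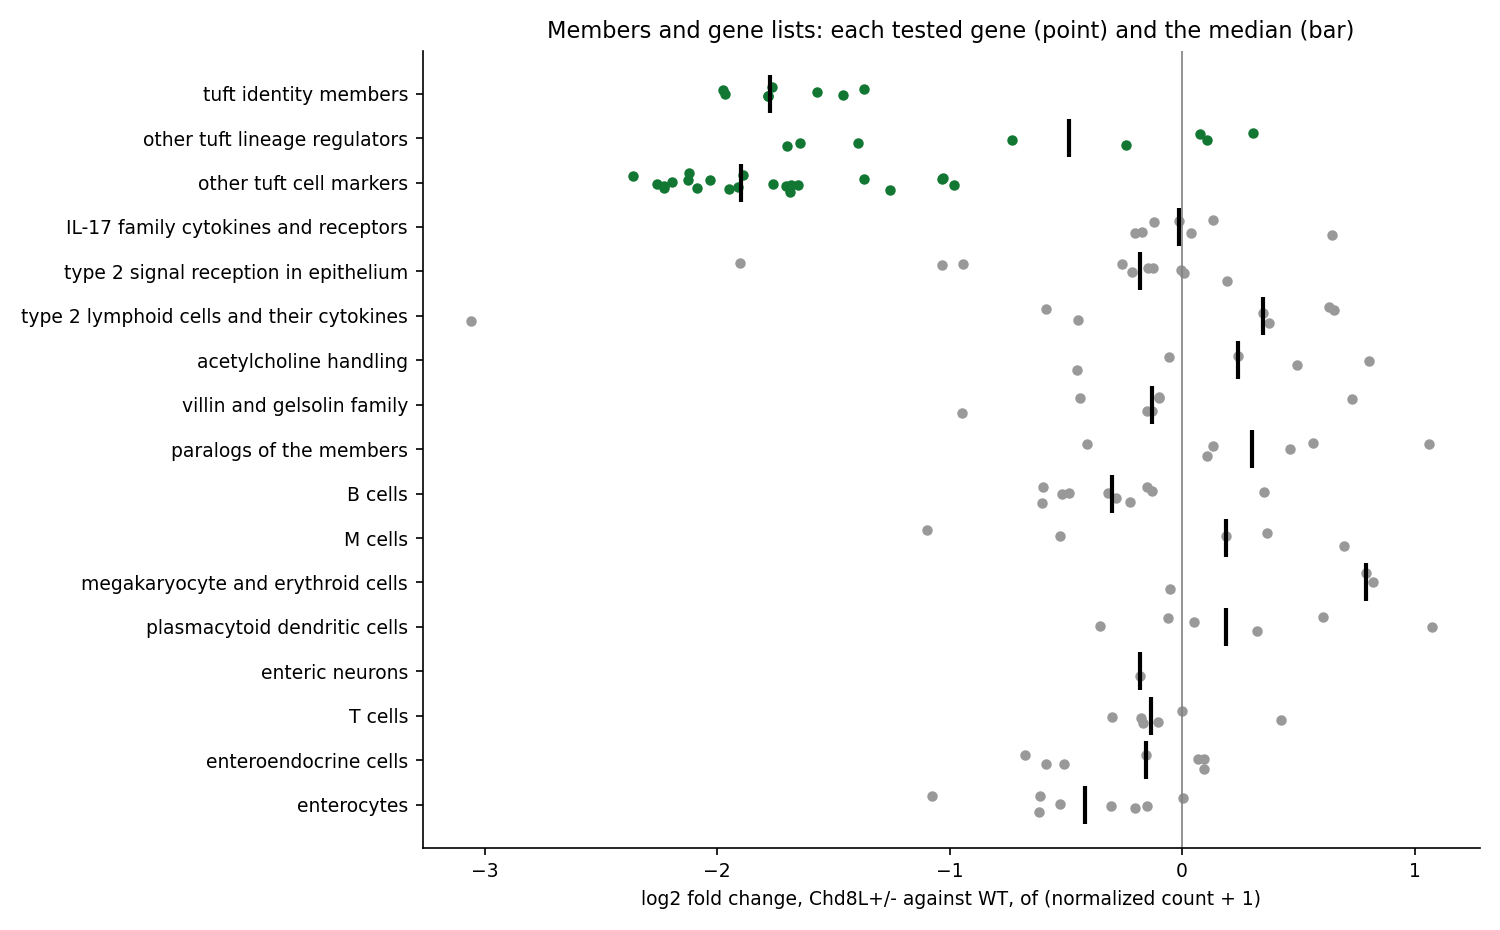
Log2 fold change of Chd8L+/- against WT (horizontal axis, log2 of the normalized count + 1, all 12 libraries) of each tested gene of the members and the gene lists, with points for genes, black bars for medians, and green for tuft cell lists. The members (median -1.77) and other tuft cell markers (median -1.90) lie left of 0 as a whole, while the medians of the other lists lie between -0.49 and 0.79.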

How the data were processed

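Epithelial cells were washed from the gut with EDTA and DTT, RNA was taken up in a column kit, and poly(A) libraries were read by the authors as 75-base single-end reads. The authors mapped them to mm10 and ran the DESeq2 pipeline; the program and annotation that counted reads, and the use of strand, are not given in the sources used here. The deposited numbers are a signal for each gene in each library, which the authors obtained as read counts over a size factor. Every value was a whole multiple of 1 read of its library (100% within 0.1), so reads were recovered, between 15691662 and 20761315 per library. Intervals and floors cover counting error only. All 12 columns matched a mouse by library name and 0 belonged to other samples.

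Genotypes were compared with limma 3.58.1 under R 4.3.3, with a trended prior, on log2(value + 1) over 12808 genes with a mean of at least 10, with Benjamini-Hochberg adjustment over all of them and a threshold of 0.05. The design had foreseen a count test for a table of counts, which this is not. Single genes, ratios and neighbours in level were tested with two-sided exact permutation tests. The steps were tested on simulated data. Alternatives were other pseudocounts and filters, DESeq2 1.42.0 and edgeR 4.0.16 run on recovered reads, quantile normalization, blocks for the replicate number and for the letter of the library name, 1 surrogate variable (sva 3.50.0), and leaving out each library.

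Positions and exon lengths come from GENCODE M21 on GRCm38, promoters from RefSeq on GRCm38.p6. The 8 members and all gene lists were chosen with earlier results of these data known. Named are the members, Chd8, the 3 genes nearest to each member in pattern, and from each list any gene past the threshold and otherwise up to 4 with the highest mean; list genes at an unadjusted p of 0.05, genes that share a receptor or enzyme step with a member, and marker genes named as having no row were named after their values were seen.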

Additional observations from a re-analysis of the deposited data

Results flagged for a closer look

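In the 30 groups of values examined, 8 genes and 7 differences to Pou2f3 in 2 genotypes, 0 held a library whose gap to its nearest neighbour was too wide for its group, where chance alone would mark about 1 in 20 groups (1.5 of 30).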

How the results depend on the processing

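The 8 members were lower in Chd8L+/- libraries in each alternative run, except that a minimum of 10 in every library left 5 of them to test, all 5 lower. Members called rose from 0 to 7 with DESeq2, with the letter of the library name as a block (in which Chd8L+/- replicate 7, alone with its letter, drops out) and without WT replicate 2, and were 0 otherwise, so that leaving out each library in turn gave 0 to 7. Genes called went from 3 to 5 with edgeR, 811 with DESeq2, 451 with the letter block and 0 to 3533 with 1 library left out (3533 without WT replicate 2, 8 without Chd8L+/- replicate 6). With the replicate block, which leaves out Chd8L+/- replicates 6 and 7, 0 genes and 0 members were called, and 0 genes also in the same 10 libraries without the block, a setting chosen after seeing the data. The labels do not say whether the replicate numbers pair the mice. The numbers within the library names, some of which recur in both genotypes, were not tried as a block. Correlations of deviations of same-numbered libraries were 0.19, -0.34, -0.13, -0.17 and -0.23, which cannot decide it, as paired mice need not deviate alike. With 1 surrogate variable the log2 fold changes of the members were -0.60 to -0.15, and that variable had an absolute correlation of 0.91 with the mean of the members and 0.63 with genotype, so that it overlaps with both.

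In the exact test, 7 members had a p of 0.05 or less, and 0 to 8 did with 1 library left out: 0 without WT replicate 4, 1 each without WT replicates 3 and 5, 4 without WT replicate 1 or Chd8L+/- replicates 3, 4 or 5, and 8 without WT replicate 2 or Chd8L+/- replicate 6. Dclk1 differed from Pou2f3 in all 15 alternatives, by 0.51 to 0.75 (exact permutation p from 0.00379 to 0.0121). Avil joined it with quantile normalization, making 2 members, and the count was 1 to 2 with 1 library left out (2 without WT replicate 3). The direction of Gfi1b against Pou2f3 turned to -0.013 with a pseudocount of 0.5, -0.091 with quantile normalization, and between -0.12 and 0.12 with 1 library left out, and that of Il25 to -0.0041 with a pseudocount of 0.5. In the order of levels, 6 of the 8 places were the same in Chd8L+/- libraries alone or with the longest transcript as length, and all 8 in WT libraries alone. Of the 3 nearest genes of each member, 11 in all were members or listed tuft cell genes, 9 without WT replicate 2 and 11 with genotype means kept. Il25, at 0 to 68 reads, is limited by depth.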
